A study of Mus musculus with 21 samples.

Results

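The long hypermethylated DMRs of mouse intestinal adenoma are the merged regions of at least 750 bp whose MeDIP-seq signal was higher in adenoma than in normal ileum. A DMR is a differentially methylated region, and MeDIP-seq sequences the DNA fragments that an antibody against 5-methylcytosine pulls down. The members were chosen by length alone from the table of hypermethylated regions: 869 of 5135 hypermethylated DMRs, or 869 of 13980 merged DMRs of both directions. The regions are built from windows of 500 bp that step by 250 bp, so only certain lengths occur. Of the 869 members, 772 were 750 bp long, 82 were 1000 bp, 9 were 1250 bp and 6 were 1500 bp, while the remaining 4266 hypermethylated DMRs were single windows of 500 bp.

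All libraries came from ileum excised from male C57BL/6J mice of 15 to 19 weeks. The groups were normal tissue of 3 wild-type mice (Apc-+/+, called B6), normal tissue of 3 Apc-Min/+ mice (APCMin), and 5 adenomas of Apc-Min/+ mice. Apc-Min/+ mice carry a truncating Apc allele in every cell and form many intestinal adenomas. Adenomas Ad4 and Ad4-1 came from the mouse that gave normal sample N4, Ad5 and Ad6 from the mice of N5 and N6, and Ad7 from a mouse without a normal MeDIP library. Input libraries, made without the antibody, came from Ad7, N4 and B3. Each sample was a piece of whole tissue, so a region methylated in more cells and a region methylated more fully in each cell cannot be told apart. Values are deposited as rpm, reads scaled to a common number of uniquely aligned reads, and the tables that hold them list no read totals. No counting error was computed here, and the error printed is the spread between samples.

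DNA methylation in mammals sits mainly on the cytosine of CpG dinucleotides. Most CpGs of a normal cell are methylated, whereas CpG islands, stretches dense in CpG that often mark gene starts, mostly stay free of it. Tumours of the intestine gain methylation at a subset of these islands, many of them at developmental genes that the Polycomb complexes mark with H3K27me3 in stem cells. A MeDIP signal depends on the methylation of a fragment and also on how many CpGs it holds, so levels are best compared between samples at the same region.

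Stretches of 240 bases are shown from 8 members, because they show how dense in CpG the strongest and longest members are. Each is the stretch with the most CpG sites outside UTR exons, read 5′ to 3′ on the plus strand of the mouse build mm9, with every CpG in capitals.
Ush1g, chr11:115180021-115180260, coding exon: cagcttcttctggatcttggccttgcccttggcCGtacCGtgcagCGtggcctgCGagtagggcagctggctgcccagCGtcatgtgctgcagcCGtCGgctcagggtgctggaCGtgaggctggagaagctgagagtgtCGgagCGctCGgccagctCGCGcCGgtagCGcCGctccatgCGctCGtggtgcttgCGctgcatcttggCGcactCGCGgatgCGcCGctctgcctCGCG
Irx2, chr13:72768830-72769069, coding exon: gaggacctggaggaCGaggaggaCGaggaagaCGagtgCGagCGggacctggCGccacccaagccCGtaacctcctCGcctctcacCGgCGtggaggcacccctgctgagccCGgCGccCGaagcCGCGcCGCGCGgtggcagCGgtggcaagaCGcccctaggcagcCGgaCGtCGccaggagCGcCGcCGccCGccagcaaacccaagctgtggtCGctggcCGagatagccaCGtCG
Pcdh17, chr14:84846763-84847002, coding exon: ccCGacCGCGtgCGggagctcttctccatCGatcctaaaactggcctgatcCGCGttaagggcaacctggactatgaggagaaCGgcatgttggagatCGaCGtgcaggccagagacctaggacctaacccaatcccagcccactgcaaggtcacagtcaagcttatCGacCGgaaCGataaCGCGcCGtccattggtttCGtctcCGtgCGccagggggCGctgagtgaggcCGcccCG
Gata4, chr14:63859520-63859759, coding exon: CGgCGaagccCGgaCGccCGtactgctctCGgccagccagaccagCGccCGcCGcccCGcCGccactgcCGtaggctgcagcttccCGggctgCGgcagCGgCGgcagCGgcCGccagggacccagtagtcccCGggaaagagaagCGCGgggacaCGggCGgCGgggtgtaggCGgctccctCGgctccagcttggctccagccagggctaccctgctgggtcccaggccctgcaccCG
Plcd3, chr11:102941557-102941796, 173 coding bases and intron: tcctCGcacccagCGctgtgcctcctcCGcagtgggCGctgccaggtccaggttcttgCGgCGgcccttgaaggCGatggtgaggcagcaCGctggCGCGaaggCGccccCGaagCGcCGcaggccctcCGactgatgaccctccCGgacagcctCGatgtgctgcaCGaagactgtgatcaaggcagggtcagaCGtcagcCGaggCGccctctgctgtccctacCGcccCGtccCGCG
Onecut3, chr10:79965625-79965864, no annotated exon: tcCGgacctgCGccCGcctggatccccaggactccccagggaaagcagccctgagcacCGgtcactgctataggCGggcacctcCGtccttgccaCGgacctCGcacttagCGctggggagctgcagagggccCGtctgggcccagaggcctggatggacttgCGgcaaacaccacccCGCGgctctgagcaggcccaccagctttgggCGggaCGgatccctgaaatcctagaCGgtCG
Ano1, chr7:151924472-151924711, no annotated exon: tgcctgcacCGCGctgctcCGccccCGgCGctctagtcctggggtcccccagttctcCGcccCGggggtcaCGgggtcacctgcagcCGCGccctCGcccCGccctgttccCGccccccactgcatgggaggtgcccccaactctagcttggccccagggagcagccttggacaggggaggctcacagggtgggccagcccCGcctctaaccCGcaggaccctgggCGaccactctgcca
Vdr, chr15:97731352-97731591, no annotated exon: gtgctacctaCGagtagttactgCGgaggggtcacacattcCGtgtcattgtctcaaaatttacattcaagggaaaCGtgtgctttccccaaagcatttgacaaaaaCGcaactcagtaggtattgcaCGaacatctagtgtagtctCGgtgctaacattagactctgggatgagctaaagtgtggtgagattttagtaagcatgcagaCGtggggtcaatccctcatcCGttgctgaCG
The Irx2 stretch held 31 CpG sites, the Gata4 stretch 27, the Ush1g stretch 26, the Plcd3 stretch 25 and the Pcdh17 stretch 22. Onecut3 had 17 and Ano1 16 in the same length. The Vdr stretch had 10 CpG sites and 46.2% GC. Neither the Vdr nor the Ano1 member overlapped a CpG island by strict criteria, and the Onecut3 member did so over only 66 bases.

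Over the 869 members, the mean signal was 0.60 ± 0.00902 rpm in adenoma (SD over the 5 libraries' means) and 0.365 ± 0.0262 rpm in normal tissue (SD over the 6 libraries' means). The 5 adenoma means lay between 0.589 and 0.609 rpm and the 6 normal means between 0.325 and 0.395 rpm. The median log2 ratio of the group means, with 0.05 rpm added to each, was 0.62, a 1.53-fold difference on that scale. Its middle 50% of values ran from 0.52 to 0.76 and its extremes were 0.37 and 3.24. These regions were selected on this very difference, so the values describe the members and support nothing. In a limma fit over all 13980 merged DMRs, 869 of 869 members passed an adjusted p of 0.05 with higher adenoma signal. So did 5134 of all merged DMRs (36.7%), of which 5135 were selected as hypermethylated. Nothing is read from these counts, because the same contrast chose the regions.

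Gains were larger where the region was longer. Length is not independent of the gain, because a region is long only where neighbouring windows passed the same selection on these libraries. The trend is therefore partly built in and is given as a description. The median log2 ratio was 0.54 over the 4266 windows of 500 bp just outside the length limit and 0.60 over the 772 members of 750 bp just inside it. It was 0.72 over the 82 members of 1000 bp, 0.77 over the 9 of 1250 bp and 0.89 over the 6 of 1500 bp. Levels followed the same order up to 1250 bp: the mean adenoma signal was 0.458 rpm at 500 bp, 0.567 at 750 bp, 0.754 at 1000 bp and 1.57 at 1250 bp, with 1.24 rpm at 1500 bp. A log2 ratio of 1 or more, which is a doubling on the log2 scale, was reached by 63 members. That is 7.25% of the members, 25.8% of the 97 members of 1000 bp or more and 2.51% of all hypermethylated DMRs.

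**Figure D1:**
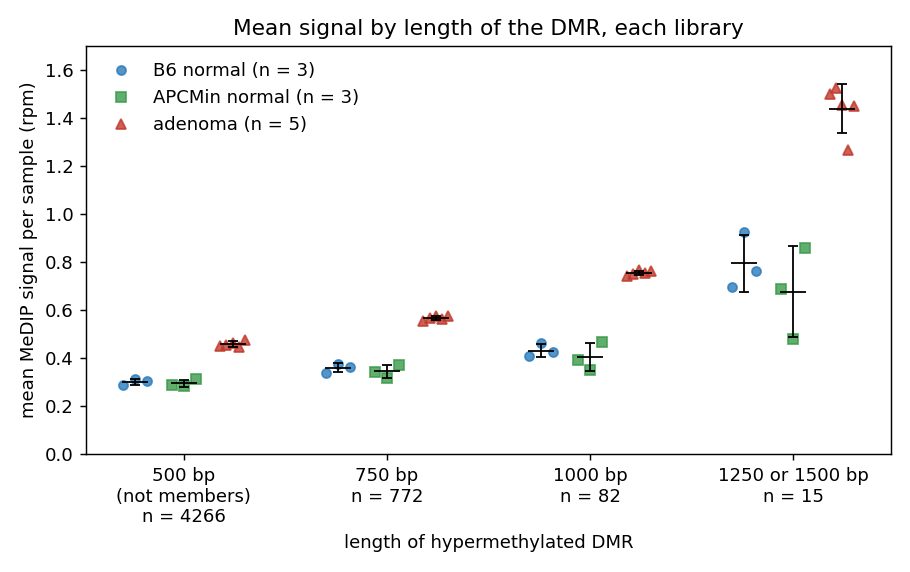
Mean MeDIP signal in rpm (y axis) of each library over hypermethylated DMRs of 4 length classes (x axis); each point is 1 library, horizontal bars are group means and vertical bars SD over libraries. The adenomas lie above both normal groups in every class, and the spread between normal libraries is widest at 1250 or 1500 bp, where they run from 0.480 to 0.923 rpm.

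The windows were kept by a rank test of these 5 adenomas against these 6 normal samples, whose threshold leaves room for a swap of at most 1 adenoma with 1 normal sample where no values tie. How far the groups overlap was therefore largely set by the selection and is given as a description. In 654 of the 869 members (75.3%) the lowest adenoma lay above the highest normal sample. The same held for 44.5% of all hypermethylated DMRs and for 38.2% of the 500 bp ones. A merged value is the median of its windows, which smooths it, so the windows themselves were compared as well. Of the 1856 windows inside long members, 56% kept every adenoma above every normal sample, against 38.2% of the 4267 other hypermethylated windows and 43.6% of all of them. The remaining 215 members overlapped, 192 of them by 1 adenoma and 1 normal sample, the overlap that the rank test permits. Ad6 reached the normal range most often, in 58 members, and Ad4-1 least often, in 37. Among the normal libraries, N6 and B2 reached into the adenoma range in 54 and 52 members and the other 4 in 29 to 31.

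Within mice, the adenoma exceeded the normal tissue of its own animal at nearly every member. Ad4 was above N4 in 866 of 869 members, Ad4-1 above N4 in 860, Ad5 above N5 in 862 and Ad6 above N6 in 853. The median log2 differences over the members were 0.63, 0.66, 0.71 and 0.54. Library names carry a number, and those with number 4 (B1, B2, N4, Ad4 and Ad4-1) gave a median log2 ratio of 0.61 by themselves. Both of these adenomas lay above the 3 normal samples in 825 members (94.9%), against 86.0% of the short hypermethylated DMRs. The selection used these libraries too, so this is no independent check. No other number holds 2 or more libraries of each tissue. Adenomas of the same mouse and of different mice were set side by side. The median absolute log2 difference was 0.175 between Ad4 and Ad4-1 and 0.188 to 0.200 over the other pairs. Ad4 and Ad4-1 also share library number 4, unlike any other pair, so mouse and library number cannot be told apart.

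The gain was not even along the longer members. In the 82 members of 1000 bp the middle window averaged 0.893 rpm in adenoma and 0.483 in normal tissue, while the outer windows averaged 0.695 and 0.631 rpm in adenoma and 0.394 and 0.366 in normal tissue. At 1500 bp the centre reached 1.5 rpm in adenoma and 0.627 in normal tissue, and the outer windows 0.927 and 0.856 in adenoma. The largest gain in rpm fell on an inner window in 79 of the 97 members of 1000 bp or more. In log2 terms the slope was shallow, with a median of 0.81 for inner windows and 0.70 for outer ones. The gain in rpm was thus larger at the centre, with a similar relative gain over the whole length. A region ends where the next window was not kept, so lower values at the edges are partly built in.

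**Figure D2:**
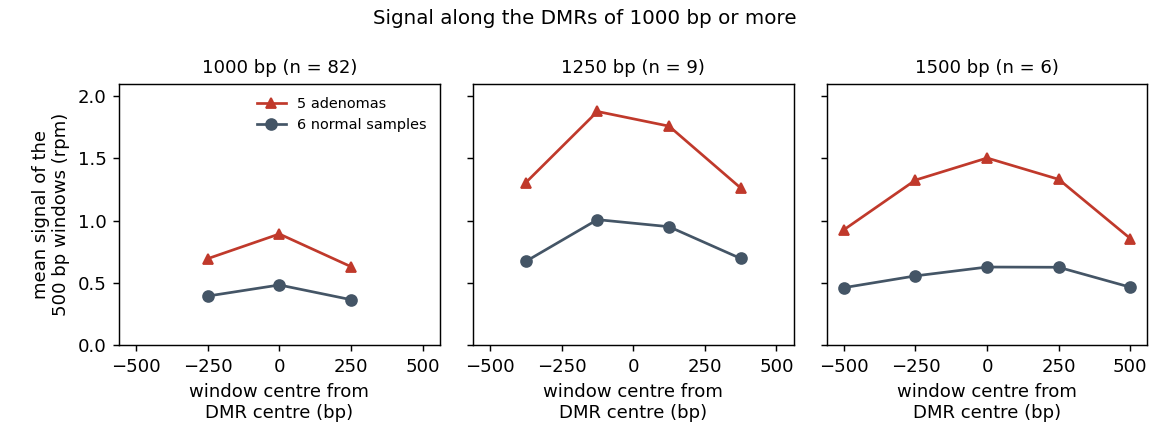
Mean signal in rpm (y axis) of the 500 bp windows against the distance of the window's centre from the DMR's centre in bp (x axis), for members of 1000, 1250 and 1500 bp; triangles are means over the 5 adenomas and circles over the 6 normal samples. Signal is highest in the inner windows in both tissues, and the adenoma line lies above the normal line at every position.

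In sequence the members differed from the other DMRs. The length rule did not read the sequence, but MeDIP signal depends on the number of CpGs, and windows were kept by their signal. CpG density and island overlap are thus not independent of the selection. Over the members, Spearman's rho between CpG density and adenoma signal was 0.50, as a description. CpG sites numbered 2.15 per 100 bp on average, against 1.67 in the short hypermethylated DMRs, 1.73 in the long hypomethylated DMRs and 0.832 over all genome windows. Read over the central 500 bp only, so that lengths are equal, the members had 2.41 per 100 bp and the long hypomethylated DMRs 1.99. Density climbed steeply with length, from 1.98 at 750 bp to 3.19 at 1000 bp, 5.41 at 1250 bp and 5.19 at 1500 bp. GC content was 49.6% in the members and 48.1% in the short hypermethylated DMRs. Averages hide a skew: the median member held 1.6 CpG sites per 100 bp, and 642 members touched no CpG island by either definition.

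CpG islands were called from the mm9 sequence. Relaxed criteria were at least 300 bp with 50% GC and 0.6 for the ratio of observed to expected CpG, and strict ones 500 bp, 55% and 0.65. Relaxed islands overlapped 226 members (26.0%), and strict islands 124 (14.3%). Over the central 500 bp the shares were 24.2% and 13.5%, against 12.2% and 4.20% of the short hypermethylated DMRs and 13.0% and 1.00% of the long hypomethylated DMRs. Genome windows of 500 bp gave 3.61% and 1.32%. A promoter, taken from 1000 bp upstream to 500 bp downstream of a transcript's start, overlapped 132 members, which is 13.7% at equal length against 8.53% of the short hypermethylated DMRs. Coding sequence was touched by 21.1% of the members at equal length and by 15.9% of the short ones. Longest of all, the 15 members of 1250 or 1500 bp met strict islands in 13 cases and coding sequence in 12. Most members still lay away from gene starts: 603 of 869 were over 10 kb from the nearest protein-coding start, and 49 within 1 kb.

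**Figure D3:**
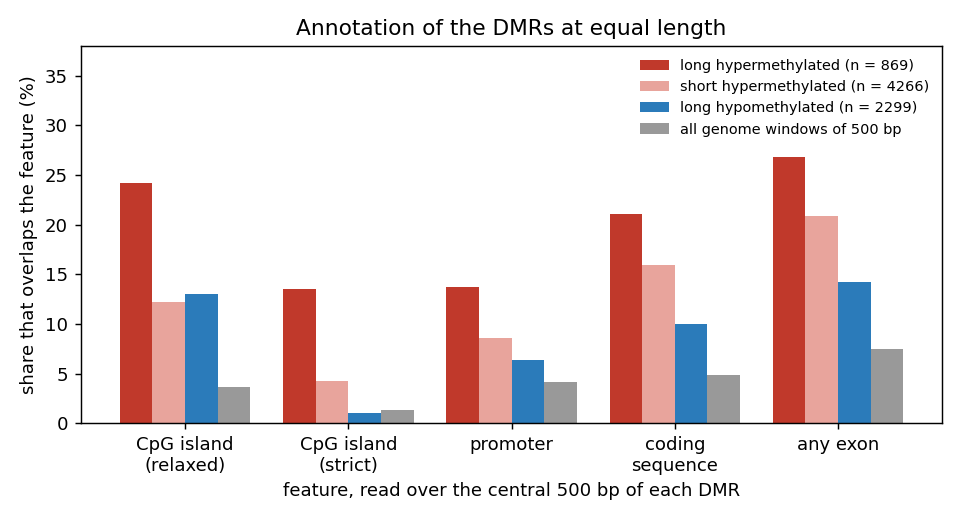
Share of regions in percent (y axis) whose central 500 bp overlap each annotated feature (x axis), for the 869 long and 4266 short hypermethylated DMRs, the 2299 long hypomethylated DMRs and all genome windows of 500 bp. The long hypermethylated DMRs have the tallest bar for every feature, and for strict islands theirs is 13.5% against 1.00% of the long hypomethylated DMRs.

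Members on strict islands gained most. Their median log2 ratio was 0.76, against 0.61 for members that met relaxed criteria only and 0.59 for the 642 members off islands. Of the 63 members with a log2 ratio of at least 1, 34 overlapped a strict island. Strict-island members with a promoter and without one had similar medians, 0.76 and 0.78. Across the 869 members the ratio and the CpG density correlated weakly (Pearson's r = 0.34, Spearman's rho = 0.17, as a description, since all members share the same 11 libraries). The selection required a mean of 0.25 rpm in 1 of the groups, so the 345 members under 0.25 rpm in normal tissue passed only through their adenoma signal, and their median log2 ratio of 0.74 is partly built in. The 28 members with at least 1 rpm in normal tissue had a median log2 ratio of 0.56 and a median gain of 0.746 rpm, against a gain of 0.156 rpm in those 345. Of the 28, 22 lay on strict islands, which thus carried MeDIP signal in normal ileum as well.

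**Figure D4:**
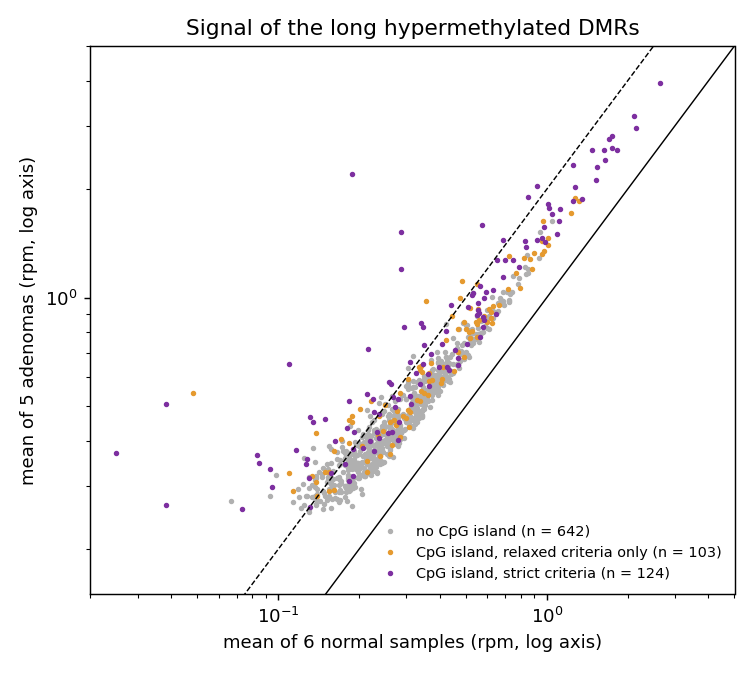
Mean of the 5 adenomas against the mean of the 6 normal samples, both in rpm on log axes; each point is 1 of the 869 members, coloured by CpG island, with a solid line at equal signal and a dashed line at a ratio of 2. All points lie above the solid line because of how the DMRs were selected, and those farthest above the dashed line are mostly on CpG islands.

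The 6 members of 1500 bp each lay in a gene and covered exon sequence. In Ush1g (chr11:115179251-115180750), which encodes the scaffold protein SANS of inner ear hair cells and photoreceptors, 1218 of the bases were coding and 80 CpG sites were present. The overlapping annotation of Otop2, a proton channel gene, also counts this region. Normal samples were at 0.25 to 0.34 rpm with a median of 0.285 there. The adenomas Ad4, Ad4-1, Ad5, Ad6 and Ad7 were at 1.32, 1.46, 1.68, 1.99 and 1.18 rpm. Every adenoma was thus more than 3 times the highest normal sample, and the ratio of means was 5.32.

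In Irx2, an Iroquois homeobox transcription factor gene (chr13:72768251-72769750), the member held 106 CpG sites, the most of all members. Adenomas reached 1.98, 2.01, 1.71, 2.16 and 2.35 rpm in the same order. Normal samples ran from 0.24 rpm in N5 to 1.44 in N6 with a median of 0.970. No overlap occurred, but normal tissue was already well above zero and varied widely. Pcdh17, a protocadherin gene of cell adhesion (chr14:84846501-84848000), was covered by coding sequence over all 1500 bp. Its adenomas were at 0.50, 0.59, 0.63, 0.51 and 0.65 rpm and its normal samples at 0.17 to 0.43 with a median of 0.245. The gap between the lowest adenoma and the highest normal sample, B2, was small.

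Aldh1b1, a mitochondrial aldehyde dehydrogenase gene (chr4:45815751-45817250), was the only 1500 bp member without a strict island. Its adenomas stood at 0.85, 0.85, 1.21, 0.84 and 0.92 rpm against 0.41 to 0.64 in normal tissue (median 0.505). Stx11, a syntaxin gene of vesicle fusion in immune cells (chr10:12660501-12662000), had 1.64, 1.80, 1.71, 1.76 and 1.89 rpm in the adenomas and 0.77 to 1.43 (median 1.075) in normal tissue. Those adenomas were tightly grouped and all above the normal samples. Icam5 (chr9:20839501-20841000) encodes a neuronal adhesion molecule. It was the 1500 bp member with overlap: Ad4-1 and N4 were both at 0.46 rpm, with the other adenomas at 0.47 to 0.74 and the other normal samples at 0.21 to 0.43.

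**Figure D5:**
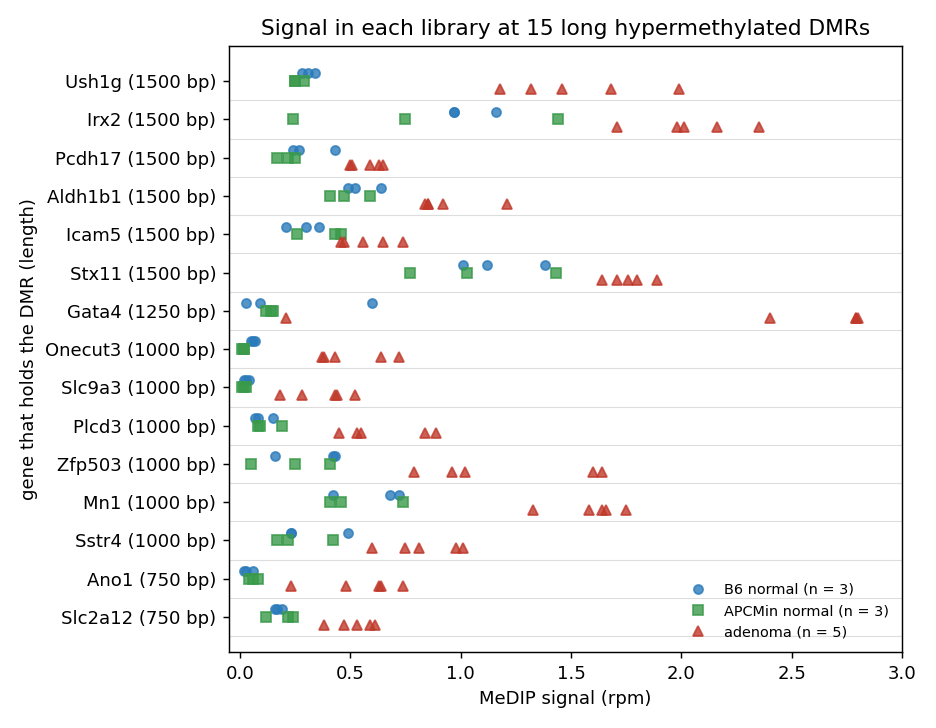
MeDIP signal in rpm (x axis) of every library at 15 members named by the gene that holds them (y axis); circles are B6 normal samples, squares APCMin normal samples and triangles adenomas. Adenomas are to the right of all normal samples in every row except Icam5 and Gata4, where Ad6 at 0.21 rpm sits among the normal samples.

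The member with the largest log2 ratio, with 0.05 rpm added to each mean, lay in Gata4 (chr14:63859501-63860750, 1250 bp), a transcription factor gene that sets the identity of the proximal small intestine. It held 485 coding and 497 UTR bases and 81 CpG sites. Ad4, Ad4-1, Ad5 and Ad7 were at 2.80, 2.40, 2.79 and 2.79 rpm, and Ad6 at 0.21. Normal samples ran from 0.03 in B3 to 0.60 in B2 with a median of 0.130. Hence 4 adenomas were at least 4 times the highest normal sample, while Ad6 lay inside the normal range. The log2 ratio was 3.24 over all libraries, 3.53 without Ad6 and 3.85 without B2. The plain ratio of means was 11.7 there, below 13.3 at Onecut3 and 14.8 at Slc9a3, both with normal means near 0 rpm.

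The order of the largest ratios depended on the amount added. With 0.05 rpm, the 10 largest among members with no overlap and at least 0.5 rpm in adenoma were headed by Onecut3 (chr10:79965251-79966250), a homeodomain transcription factor gene. Its normal samples lay at 0.01 to 0.07 rpm with a median of 0.035, close to no signal. The adenomas were at 0.38, 0.72, 0.64, 0.37 and 0.43 rpm, which gave a log2 ratio of 2.66. Ano1, a calcium-activated chloride channel gene (chr7:151924001-151924750), showed 0.23, 0.64, 0.48, 0.74 and 0.63 rpm against 0.02 to 0.08 (median 0.050), with a log2 ratio of 2.59. In both, all normal samples were near zero and every adenoma was higher. With 0.5 rpm added, the log2 ratios of Onecut3 and Ano1 were 0.90 and 0.93, below 1.37 at Ush1g, 1.11 at Zfp503 and 0.97 at the second Mn1 member. Ush1g followed at 2.23. Plcd3, a phospholipase C gene (chr11:102941251-102942250), came next at 2.13, with 0.45 to 0.89 rpm in adenoma and 0.07 to 0.19 in normal tissue.

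Zfp503, a zinc finger repressor gene (chr14:22803751-22804750), had a log2 ratio of 1.89, with adenomas from 0.79 to 1.64 rpm and normal samples from 0.05 to 0.43. Mn1, a transcriptional coregulator gene, held 2 of these members within its coding sequence, with log2 ratios of 1.53 (chr5:111847251-111848000) and 1.40 (chr5:111848751-111849750). The somatostatin receptor gene Sstr4 (chr2:148221001-148222000) had 1.36, a further Onecut3 member (chr10:79976501-79977250) 1.34 and the glucose transporter gene Slc2a12 (chr10:22364501-22365250) 1.28. All of these were on CpG islands, and all but the first Onecut3 member touched coding sequence. Slc9a3, the gene of the brush border sodium and proton exchanger NHE3, had its member over the gene start (chr13:74258501-74259500). Its adenomas were at 0.28, 0.44, 0.52, 0.18 and 0.43 rpm and its normal samples at 0.01 to 0.04 with a median of 0.025. Although the mean stayed under 0.5 rpm, the log2 ratio was 2.49.

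At the other end were members that were strong in normal tissue. Zfp316, a zinc finger gene (chr5:144014751-144015500), had the highest normal mean, 2.63 ± 0.738 rpm (SD, n = 6), and 3.95 ± 0.179 rpm in adenoma (SD, n = 5). Gp1bb and Sept5 (chr16:18621501-18622250) share the next, at 2.16 ± 0.391 and 2.95 ± 0.134 rpm. Gm996 (chr2:25433001-25433750), Nr4a2 (chr2:56963751-56965000), an orphan nuclear receptor gene, and Hand1 (chr11:57644751-57645500), a basic helix-loop-helix factor of the heart, had normal means of 2.11, 1.83 and 1.75 rpm. All 5 lay on strict islands and had log2 ratios of 0.44 to 0.59. The lowest ratios, 0.37 to 0.39, belonged to members within Hepacam2 and Zfyve28 and to 3 members outside genes, none of them on an island. The nearest gene starts to those 3 were of Fgfrl1, Gm4889 and Cdh20, with that of Gm4889 as far as 219161 bp away and that of Cdh20 farther still.

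Genes with several members were few. The 568 members in or just upstream of a protein-coding gene fell on 558 genes, of which 38 held 2 or more and 5 held at least 3. Onecut3 and Vdr, the vitamin D receptor gene, each held 3 with no overlap between groups. The Vdr members had log2 ratios of 1.12 (chr15:97731001-97732000), 0.92 (chr15:97726751-97727500) and 0.76 (chr15:97722251-97723250). At the first, adenomas were at 0.82, 1.28, 1.03, 1.45 and 0.98 rpm and normal samples at 0.30 to 0.61 with a median of 0.505. Every adenoma was higher than every normal sample at a region with 22 CpG sites in 1000 bp. Rab11fip4, which encodes a Rab11 effector of vesicle traffic, held 3 with log2 ratios of 0.39 to 0.52. Pcdhgc5 in the clustered gamma protocadherins held 4, at 0.49 to 0.69; its annotated body spans the cluster, so these members are shared with other cluster genes. Fgfr2 was also counted 3 times, but its annotated body runs from 137305965 to 140315033 on chromosome 7, and 2 of its members lie in Lhpp as well.

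Of 176 homeobox and other patterning genes, 11 (6.25%) held a long member, against 558 of 22238 protein-coding gene symbols (2.51%). Hoxa3 (chr6:52122001-52123250) and Hoxd3 (chr2:74584251-74585500), which set position along the body axis, had 1250 bp members. Hoxd3 adenomas were at 2.52 to 3.02 rpm and its normal samples at 1.14 to 2.27, with a log2 ratio of 0.68. For Hoxa3 the ranges were 1.60 to 1.93 and 0.42 to 1.37 rpm, and the log2 ratio was 0.77. In neither gene did the groups overlap. In the list of GATA, SOX, FOX, T-box and RUNX factors, 3 of 85 held one: Gata4, Foxa2, an endoderm factor, and Sox15, with log2 ratios of 3.24, 0.91 and 0.66. Among basic helix-loop-helix factors it was 3 of 58 (Tcf4, Nhlh1 and Hand1), with log2 ratios of 0.58, 0.84 and 0.56.

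Nuclear receptors had the highest share, 8 of 41 genes (19.5%) with 10 members. This was not particular to long members: 19 of the 41 (46.3%) held a hypermethylated DMR of any length, against 11.1% of all protein-coding gene symbols. A hypomethylated DMR was held by 11 of the 41. Besides Vdr and Nr4a2, Rara, the retinoic acid receptor alpha gene, and Esrrg, an estrogen-related receptor gene, had log2 ratios of 0.67 and 0.62, and in both of them the groups overlapped. Axon guidance and ephrin genes had 6 of 71, among them Sema6c at 1.16, Unc5b, a netrin receptor, at 0.85, Nrp2 at 0.78 and Ntn1, which encodes netrin itself, at 0.74. Cadherins and protocadherins had 4 of 76: Pcdh17, Dchs1, Pcdhgc5 and Cdh7. Wnt pathway genes had 2 of 79, Fzd2, a Wnt receptor, and Prickle4, with log2 ratios of 0.45 and 0.49. Ion channels and solute carriers had 26 of 590, and extracellular matrix and adhesion genes 9 of 180, with Col2a1, Itga2, Tnr and Adam32 at 0.55 to 0.75. A list of genes reported as silenced by methylation in human colon cancer, written from general knowledge, had 5 of 49. Besides Gata4, Vdr and Hand1 these include Rassf5 at 0.84. The Gata4 and Rassf5 members and the Vdr member at 1.12 overlapped no promoter. The Vdr member at 0.92 and the Hand1 member did, but at Hand1 the groups overlapped. Gene expression was not used, so silencing was not tested. Long genes have more room for a region: the median gene body was about 49190 bp among nuclear receptors, 7710 bp among patterning genes and 15420 bp over all genes. The other lists also exceeded all genes for hypermethylated DMRs of any length. Their shares were 39.4% for axon guidance, 21.2% for GATA to RUNX factors, 20.4% for colon cancer genes and 20.25% for the Wnt pathway. Patterning genes had 18.75%, cadherins 18.4%, matrix genes 17.2%, channels and carriers 17.1% and basic helix-loop-helix factors 12.1%. More genes held a hypomethylated than a hypermethylated DMR in the Wnt (24 against 16), cadherin (18 against 14) and matrix lists (58 against 31). The same held for channels and carriers (132 against 101), colon cancer genes (14 against 10) and all gene symbols (3176 against 2472). Fewer did among patterning genes (26 against 33) and GATA to RUNX factors (14 against 18). Fewer also did for axon guidance (27 against 28) and basic helix-loop-helix factors (3 against 7). No set test was run, so the counts and shares are descriptions only.

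By nearest protein-coding gene start, 53 members (6.10%) belonged to targets of both PRC1 and PRC2 in mouse embryonic stem cells, a set that makes up 2.11% of protein-coding genes. The short hypermethylated DMRs gave 4.97% and the long hypomethylated DMRs 4.52%. The share of genes is not an expected share, because regions were assigned by nearest start and genes far from others can receive more. Genes marked by H3K27me3 in human embryonic stem cells are 4.56% of protein-coding genes and were nearest to 12.2% of the members, 8.58% of the short hypermethylated DMRs and 7.26% of the long hypomethylated DMRs. For PRC2 targets, 2.68% of genes, the shares were 8.52%, 5.16% and 3.83%. For targets of the PRC2 subunit EED, 4.16% of genes, they were 9.78%, 7.64% and 6.70%. Among the 124 strict-island members the shares were 14.5% for PRC1 and PRC2, 25% for H3K27me3, 20.2% for PRC2 and 21.0% for EED. MLL targets, 2.53% of genes, were nearest to 2.99% of the members and 3.63% of the short hypermethylated DMRs. TET1 targets, 8.47% of genes, were nearest to 11.4% and 12.1%. Among the strict-island members the shares were 2.42% for MLL targets and 13.7% for TET1 targets. Shares were not computed for other strict-island regions, so all the strict-island shares given here lack a background. Smaller sets rest on few members. Intestinal stem cell markers were nearest to 5 members (0.575%, against 0.21% of genes) and Wnt targets in colon cancer to 4 (0.46%, against 0.125%). Markers of early transit-amplifying cells were nearest to 6 (0.69%, against 1.11%), of late ones to 5 (0.575%, against 0.416%) and of Paneth cells to 1 (0.115%, against 0.21%).

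The normal tissue of APCMin mice was compared with that of B6 mice to ask whether the members already differed in tissue without a visible tumour. The selection did not contrast these groups, but it pooled the same 6 libraries as the normal group that had to lie below the adenomas. Regions raised in APCMin normal tissue to the adenoma level were thus mostly kept out, and the counts hold only for regions selected in this way. Limma called 0 of 869 members at an adjusted p of 0.05 and 0% of all 13980 merged DMRs. At an unadjusted p of 0.05, 44 members passed, 11 higher and 33 lower in APCMin, beside 4.50% of all merged DMRs. The members' share was 5.06%. The median log2 difference, APCMin minus B6, was −0.05, with 90% of members between −0.47 and 0.32, and the median standard error of a member's difference was 0.21. Mean signal was 0.374 ± 0.0213 rpm in B6 and 0.356 ± 0.0319 rpm in APCMin normal tissue (SD, n = 3 each). At this sample size differences within that error were not detectable, and much larger ones also went uncalled. The Onecut3 member chr10:79965251-79966250, for example, had a log2 difference of −0.72 and was not called. Its normal samples lay at 0.01 to 0.07 rpm, near the 0.05 rpm added, so that difference rests on very low signal. The Hoxa3 member chr6:52122001-52123250, with normal samples from 0.42 rpm in N5 to 1.37 in B2, had −0.71 and was not called either.

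Library N5 stood apart on islands. Over the 124 strict-island members N5 averaged 0.412 rpm and the other 5 normal samples 0.543 to 0.713, while over the 642 members off islands N5 was at 0.299 and the others at 0.299 to 0.320. On strict islands the median difference between APCMin and B6 was −0.17 with N5 and −0.01 without it. Over all members it was −0.05 with N5 and −0.00 without it. For adenoma over normal, the median log2 ratio without N5 was 0.60. Without it, 682 members (78.5%) had no overlap, against 45.6% of the short hypermethylated DMRs. At Irx2, N5 was at 0.24 rpm and N4 and N6 at 0.75 and 1.44, and the log2 ratio was 0.92 without N5. The part of N5 in the other comparisons was not tested.

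Input libraries showed no matching gain. Over the members the input mean was 0.135 rpm in Ad7, 0.139 in N4 and 0.200 in B3, so the adenoma input stood at 0.971 of the N4 input. MeDIP signal of the same samples stood at a ratio of 1.72, Ad7 over N4. On strict islands the inputs were at 0.119, 0.125 and 0.248 rpm. With 1 library each, the inputs have no replicates.

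Members were spread over all autosomes and the X chromosome. Chromosome 11 had the most per length, 0.575 per Mb, and chromosome X the least, 0.054 per Mb with 9 members. As a share of the hypermethylated DMRs of a chromosome, members made up 12.2% on chromosome 13 and 27.3% of the 33 on X. Most stood alone: 56 had another hypermethylated DMR within 2 kb and 18 a hypomethylated one.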

How the data were processed

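MeDIP-seq libraries of 11 ileum samples and 3 input libraries were used. Reads were aligned with Bowtie (version 0.12.5, per the submitters' processing notes, which also name edgeR and the build mm9). The authors extended reads to 300 nt, averaged coverage over 500 bp windows with a step of 250 bp, and deposited it as rpm (RPM), reads scaled to a common number of uniquely aligned reads, with 2 decimals. They kept windows by a rank test of 5 adenomas against 6 normal samples (p under 0.01), a minimum ratio and a mean of 0.25 rpm in a group, and merged overlapping windows. A check against the deposited windows showed that a merged rpm is the median of its windows, to within 0.005 rpm, in 869 of 869 members. Unlike a mean, the median does not weigh a peak window.

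Regions of at least 750 bp were kept. The members and gene lists were chosen with earlier results of these data known. Log2 values had 0.05 rpm added. Differences between normal groups were tested by limma (version 3.58.1, R 4.3.3), two-sided, with Benjamini-Hochberg adjustment over all 13980 merged DMRs; the code was tested on simulated data. Samples were grouped by the labels; the 6 normal samples came from separate mice, and 2 of the adenomas share a mouse. Nothing was filtered on low values. Annotation was GENCODE vM1 on NCBIM37, the sequence of mm9, and target gene sets were gene lists supplied with the study.

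Adenomas and normal samples of 3 mice are paired by animal. The correlation of their deviations from the group means over the members ran from −0.12 to 0.15 in the 4 same-animal pairs and from −0.14 to 0.11 in the 26 others. The named regions were those of greatest length, the 10 largest ratios without overlap and at least 0.5 rpm in adenoma, the 5 highest in normal tissue, the 5 lowest ratios, genes with at least 3 members, up to 4 genes per list, and any normal group difference past the threshold. Alternatives were another pseudocount, a low-value filter, leaving out each library, library number 4 alone, pairing by animal, other island, promoter, overlap and length limits, and, chosen after seeing the data, window means and the removal of N5 by island class. The 7 RNA libraries and the single-window table of hypomethylated DMRs were not used here.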

Additional observations from a re-analysis of the deposited data

Results flagged for a closer look

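Among the 62 named members, 3 had an adenoma whose gap to the next library took up most of the range of the 5 adenomas, by Dixon's criterion at the 95% level. Chance alone marks about 1 in 20 groups. Over all 869 members 77 (8.86%) were marked, with Ad4 standing apart in 12, Ad4-1 in 14, Ad5 in 16, Ad6 in 18 and Ad7 in 17, so no single library accounts for them.

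At Gata4 (chr14:63859501-63860750), Ad6 was at 0.21 rpm while the other adenomas were at 2.40 to 2.80 rpm, and the gap took up 0.846 of the range. At Aldh1b1 (chr4:45815751-45817250), Ad5 was at 1.21 rpm and the other adenomas at 0.84 to 0.92 rpm. At Tcf4 (chr18:69566001-69567000), Ad4-1 was at 0.72 rpm and the others at 0.49 to 0.51 rpm. Ad4, from the same mouse as Ad4-1, was at 0.50 rpm there.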

How the results depend on the processing

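The median log2 ratio of 0.62 fell to 0.30 with 0.5 rpm added and to 0.59 over members of at least 0.25 rpm. It was 0.65 with the same animal's normal sample as replicate block, 0.74 over members of 1000 bp or more and 0.60 to 0.64 on leaving out each library. Members without overlap numbered 340 where the lowest adenoma had to exceed the highest normal sample by a factor of 1.1, and 76 of the 97 at 1000 bp or more; leaving out each library gave 680 to 707. Shares were 14.3% for strict islands, 8.98% for promoters at gene starts only, and 25.4% for exons with at least 100 bases of overlap. CpG sites per 100 bp came to 2.41 over the central 500 bp and 3.52 at 1000 bp or more. In the limma description of adenoma against normal, the 7 libraries of paired mice called 756 members with the replicate block and 791 without it, and leaving out each library 868 to 869. No other call was fitted with the block. For APCMin against B6 normal tissue 0 members were called in all settings run, with 27 to 74 at an unadjusted p under 0.05 (44 as reported, 74 without B1, 72 without N6, and 27 of 524 members of at least 0.25 rpm), and the median difference was −0.09 to −0.00 on leaving out each library. Of 930 values for the 62 named members, 815 moved by less than the spread between adenomas, 115 moved more and 0 changed sign. Ratios of members near 0 rpm in normal tissue depended most on the amount added. No counting error was computed, since the deposited tables list no read totals.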
